A study of Mus musculus with 2 samples.

Results

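The 37 genes described here encode the enzymes, transporters and switches of glycolysis (26 genes) and the best-known targets and regulators of the response to low oxygen (11 genes). They were listed by name and function out of the 37172 genes measured in cells of mouse small-intestinal organoids. Glycolysis splits glucose into pyruvate, which either enters the mitochondrion or is reduced to lactate and exported. When oxygen is scarce, prolyl hydroxylases stop marking the alpha subunit of hypoxia-inducible factor for destruction, and the factor switches on genes for glucose uptake, glycolysis, lactate export and mitophagy. Because the factor is controlled mostly as a protein, its messenger RNA need not move with its activity. In the intestine, the epithelium sits on a steep oxygen gradient between the vessels of the villus and the lumen.

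The study set organoids grown in type I collagen, which form cystic spheres, against organoids grown in Matrigel, a basement membrane extract, which form buds. Both cultures came from the proximal small intestine of C57BL/6 wild-type mice, and both media held EGF at 50 ng/mL, Noggin at 100 ng/mL and R-spondin1 at 400 ng/mL. The collagen medium was supplemented with 100 ng/mL Wnt3a, 1% bovine serum albumin and 10 mM nicotinamide, so the matrix and these 3 additions cannot be told apart. On day 4, collagen cultures were released with collagenase at 0.5 mg/mL and Matrigel cultures with an enzyme-free recovery solution, and both were then dissociated with the same enzyme. How the cells were released therefore also differed with the culture.

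Each culture gave 1 cell suspension, tagged with its own hashtag, and both were pooled into 1 single-cell library. There was no replicate, no test across samples was possible, and every difference is between these 2 suspensions. After a filter on detected genes and mitochondrial share, 336 collagen cells and 1599 Matrigel cells were kept, with medians of 124619 and 179044 counts per cell and of 3.43% and 4.63% mitochondrial counts, and the cultures shared 0 cell barcodes. Levels are counts summed over the cells of a culture and scaled to a total of 1000000 (CPM), and the log2 ratio is that of collagen CPM + 1 over Matrigel CPM + 1, which understates the ratio of low genes. The 5 epithelial markers summed to 6031 CPM in collagen cells and 3145 CPM in Matrigel cells. Markers of immune cells (8.90 and 4.34 CPM, with 5 of 6 in the table), fibroblasts (1.02 and 0.939 CPM, 5 genes) and endothelium (2.01 and 2.08 CPM, 4 genes) were near 0 in collagen and Matrigel cells. Of the 8 genes on RNA quality and handling, 4 were higher in collagen cells by 2-fold or more (Malat1, Neat1, Hspa1a and Hspa1b) and 4 lower by as much (Fos, Fosb, Jun and Atf3); their part in the differences below was not tested.

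Of the 37 genes, 33 reached 5 CPM in at least 1 culture. Among them, 10 rose in collagen cells by 2-fold or more and 0 fell by as much. Of all 10593 genes that reached 5 CPM, 8.21% rose and 8.91% fell by this measure, with a median log2 ratio of -0.02. In glycolysis, 6 of 22 genes rose in collagen cells (Slc2a1, Hk1, Pfkp, Aldoa, Aldoc and Slc16a3), 16 stayed within 2-fold, with a median log2 ratio of 0.46 (range -0.40 to 2.10). Among the hypoxia-responsive genes, 4 of 11 rose (Egln3, Adm, Ankrd37 and P4ha1), 7 stayed within 2-fold, with a median of 0.90 (range -0.23 to 2.07). Summed over its members, glycolysis made up 13961 CPM in collagen cells and 9723 CPM in Matrigel cells, and the hypoxia-responsive genes 1203 and 616 CPM. The genes that rose were mostly of middle level: 8 of the 15 members between 50 and 500 CPM rose, against 10.6% of all 2908 genes at that level. At 500 CPM or more, 1 of 9 members rose (Aldoa), near the 12.5% of all genes at that level, and between 5 and 50 CPM 1 of 9 did (Adm), near the 7.11% of all genes there. Markers of cell state moved with the culture too. In collagen cells, 6 of 6 stem-cell markers (median log2 ratio -2.73) and 4 of 5 S-phase genes (-2.41) were lower by 2-fold or more. Of the 5 G2/M genes, 2 were higher in collagen cells by as much and 0 lower (0.51). There, 5 of the 5 fetal and regenerative markers that reached 5 CPM (4.59) and 4 of 7 enterocyte markers (1.18) were higher by as much, while 2 of the 7 were lower. The part of these states in the members' ratios was not tested.

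**Figure D1:**
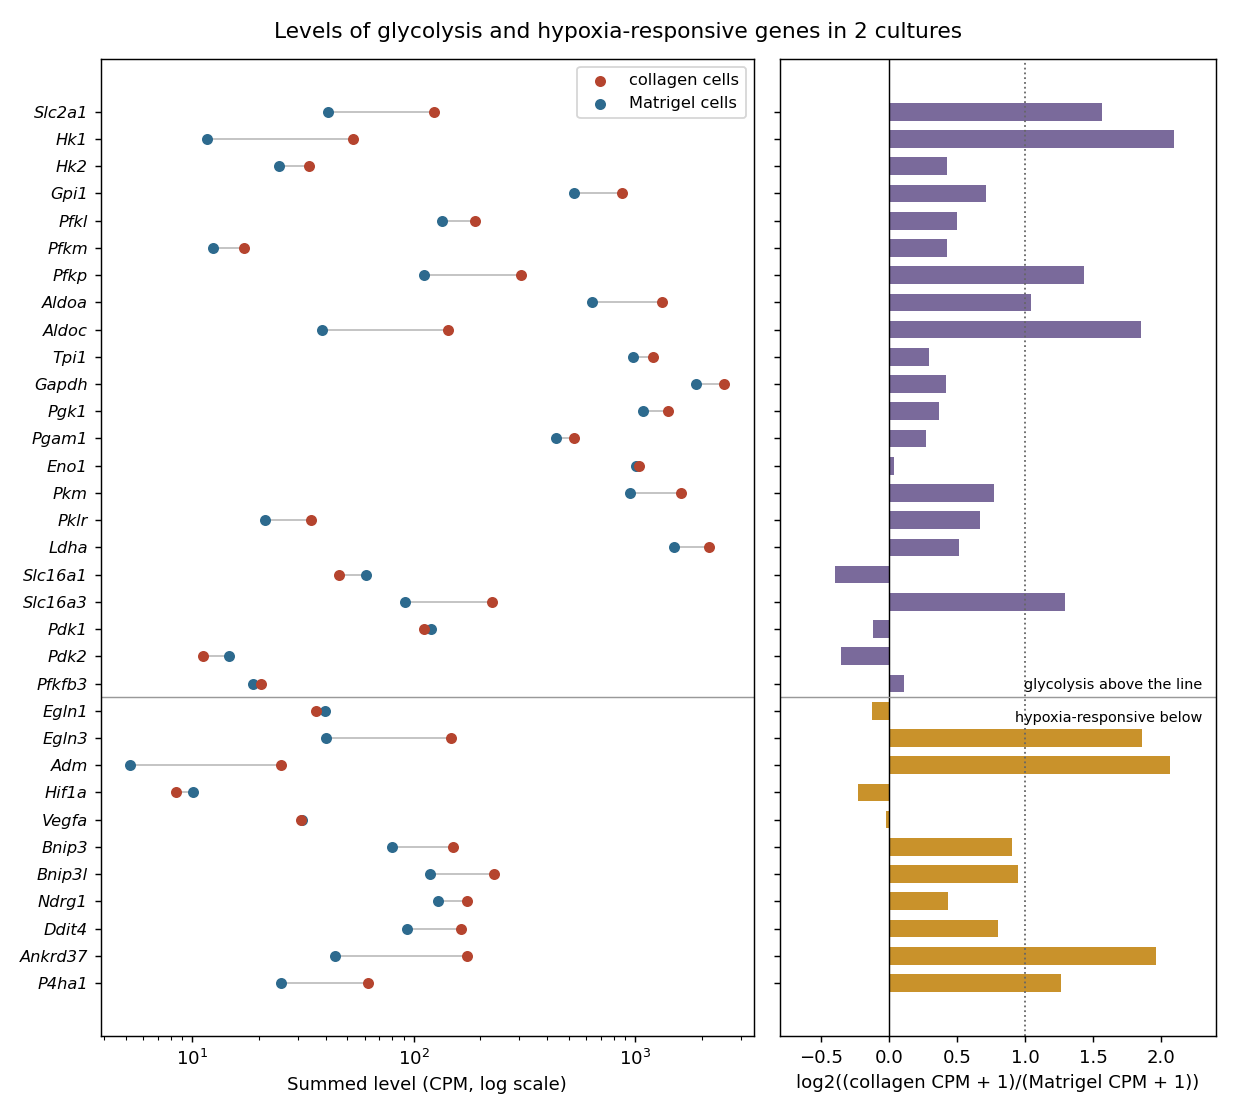
Summed level in collagen cells (red) and Matrigel cells (blue) of the 33 members that reached 5 CPM, on a log axis (left), and the log2 ratio of collagen over Matrigel (right, dotted line at 2-fold). Glycolysis genes run from glucose uptake down to pyruvate handling; most bars point toward collagen, 10 pass the line, and Slc16a1 has the most negative ratio at -0.40.

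At glucose uptake and its first phosphorylation, Slc2a1 and Hk1 differed more than most genes of later steps, while their relatives Slc2a3 and Hk2 stayed within 2-fold. Slc2a1, the widespread basal glucose transporter GLUT1, stood at 124 CPM in collagen cells (95% Poisson interval 120.3 to 127) and 41.1 CPM in Matrigel cells (40.4 to 41.9), a log2 ratio of 1.57. Per cell it had a median of 82.4 CPM in collagen cells (quartiles 36.7 and 161, highest 1104) and 30.3 CPM in Matrigel cells (quartiles 11.5 and 58.6, highest 715). The ranges overlapped from 0 upward, but 78.9% of collagen cells lay above the Matrigel median. Slc2a3, the transporter GLUT3 best known from neurons, stayed near 2 CPM in both cultures (2.05 and 2.18 CPM). Hk1, the hexokinase found in most tissues and held at the mitochondrial surface, rose to 53.3 CPM in collagen cells (51.1 to 55.5), against 11.7 CPM in Matrigel cells (11.3 to 12.1), a log2 ratio of 2.10. At the same depth of 77972 counts per cell, 74.6% of 264 collagen cells (exact binomial interval 68.9 to 79.8%) and 39.1% of 1477 Matrigel cells (36.6 to 41.7%) held a count of Hk1. Before thinning these shares were 76.2% of collagen cells and 54.2% of Matrigel cells. No group of cells in this library is known to lack these genes, so no background share can be set beside them. Hk2, the hexokinase induced by insulin and hypoxia in many cell types, differed little, at 33.5 CPM in collagen cells and 24.6 CPM in Matrigel cells (log2 ratio 0.43).

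At the fructose steps, one phosphofructokinase gene rose and its relatives did not pass 2-fold. Pfkp, the platelet-type phosphofructokinase, stood at 304 CPM in collagen cells (299 to 309) and 112 CPM in Matrigel cells (110.4 to 113), a log2 ratio of 1.44. Its median per cell was 266 CPM in collagen cells (quartiles 139 and 451) and 89.0 CPM in Matrigel cells (quartiles 36.5 and 160), and 85.4% of collagen cells lay above the Matrigel median. Pfkl, the liver type, was at 189 and 133 CPM in collagen and Matrigel cells (log2 ratio 0.50), and Pfkm, the muscle type, at 17.1 and 12.4 CPM (0.43). Gpi1, which turns glucose 6-phosphate into fructose 6-phosphate, was at 872 CPM in collagen cells and 531 CPM in Matrigel cells (0.72). Pfkfb3, which makes the allosteric activator of phosphofructokinase and is a hypoxia target in many cells, had nearly equal sums (20.4 CPM in collagen cells and 18.8 CPM in Matrigel cells, 0.11). Its cells were arranged differently: the middle cell had 0 CPM in collagen and 9.84 CPM in Matrigel, while the highest 10% of cells carried 67.2% of the level in collagen cells and 42.7% in Matrigel cells.

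Both aldolase genes, which split the 6-carbon sugar, rose. Aldoa, the muscle-type aldolase that is expressed widely, stood at 1319 CPM in collagen cells (1308 to 1330.1) and 639.9 CPM in Matrigel cells (637 to 643), a log2 ratio of 1.04, close to the 2-fold line. It had the widest separation of cells: the middle cell had 1313 CPM in collagen and 598 CPM in Matrigel, and 89.0% of collagen cells lay above the Matrigel median. Aldoc, the brain-type aldolase, stood at 143 CPM in collagen cells (139 to 146) and 38.7 CPM in Matrigel cells (37.9 to 39.4), a log2 ratio of 1.86. Its median per cell was 104 CPM in collagen cells and 26.5 CPM in Matrigel cells, and 79.8% of collagen cells lay above the Matrigel median.

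The 3-carbon steps that follow stayed within 2-fold. Tpi1, which interconverts the triose phosphates, had a log2 ratio of 0.30 (1197 CPM in collagen cells and 975 in Matrigel cells). Gapdh, which makes NADH at this stage, had one of 0.42 (2524 and 1889 CPM in collagen and Matrigel cells). Pgk1, the first step that yields ATP, had 0.37 (1401 and 1087 CPM), Pgam1, a mutase, 0.27 (531 and 439 CPM) and Eno1, the common enolase, 0.04 (1039 and 1012 CPM). Eno2, the neuronal enolase, was close to absent, with 3 counts in collagen cells and 24 in Matrigel cells. Pkm, the pyruvate kinase of most tissues, was at 1614 CPM in collagen cells and 945 CPM in Matrigel cells (0.77), with 88.1% of collagen cells above the Matrigel median. Pklr, the liver and red-cell pyruvate kinase, was at 34.5 CPM in collagen cells and 21.4 CPM in Matrigel cells (0.67). Several of these genes carry many non-whole values, as estimated counts of reads shared between near-identical copies can have. How reads of such copies were divided is not known here, and the levels of these genes are uncertain: 99.9% of the values above 0 of Gapdh, 99.8% of Eno1, 96.1% of Pkm and 81.1% of Pgk1 were not whole. With whole-number values alone, which leaves little of Pkm, the log2 ratio of Pkm was -0.66 and that of Aldoa 0.96, and the cause was not tested. At Slc2a3, Bnip3l, Ldha, Hif1a and Tpi1 the shares of non-whole values were 78.9, 90.8, 67.1, 65.4 and 63.6%.

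At the end of the pathway, the lactate exporter rose, while the genes that steer pyruvate and reached 5 CPM stayed within 2-fold. Ldha, the lactate dehydrogenase subunit that favours lactate, was at 2149 CPM in collagen cells and 1502 CPM in Matrigel cells (0.52). Ldhb, the heart-type subunit, was close to absent, with 12 counts in collagen cells and 113 in Matrigel cells. Slc16a3, the lactate exporter MCT4 of highly glycolytic cells, stood at 226 CPM in collagen cells (221 to 230.3) and 91.5 CPM in Matrigel cells (90.4 to 92.6), a log2 ratio of 1.29. Its median per cell was 195 CPM in collagen cells (quartiles 78.0 and 315) and 71.9 CPM in Matrigel cells (quartiles 24.2 and 137). Slc16a1, the monocarboxylate transporter MCT1, which carries lactate and butyrate in either direction, pointed the other way, at 46.1 CPM in collagen cells and 61.0 CPM in Matrigel cells (-0.40). Only 33.9% of collagen cells lay above its Matrigel median. The pyruvate dehydrogenase kinases close the mitochondrial route by inactivating pyruvate dehydrogenase. Pdk1, their hypoxia-induced member, was at 110.7 CPM in collagen cells and 119.9 CPM in Matrigel cells (-0.11). Pdk2 was at 11.2 and 14.6 CPM in collagen and Matrigel cells (-0.35). Pdk4, the member induced by fasting, was at 1.34 CPM in collagen cells (1.01 to 1.74) and 0.132 CPM in Matrigel cells (0.0943 to 0.183), a log2 ratio of 1.05. It lies below 5 CPM, so it is not counted among the genes that rose, and it rests on 57 counts in 12 collagen cells and 38 counts in 17 Matrigel cells.

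**Figure D2:**
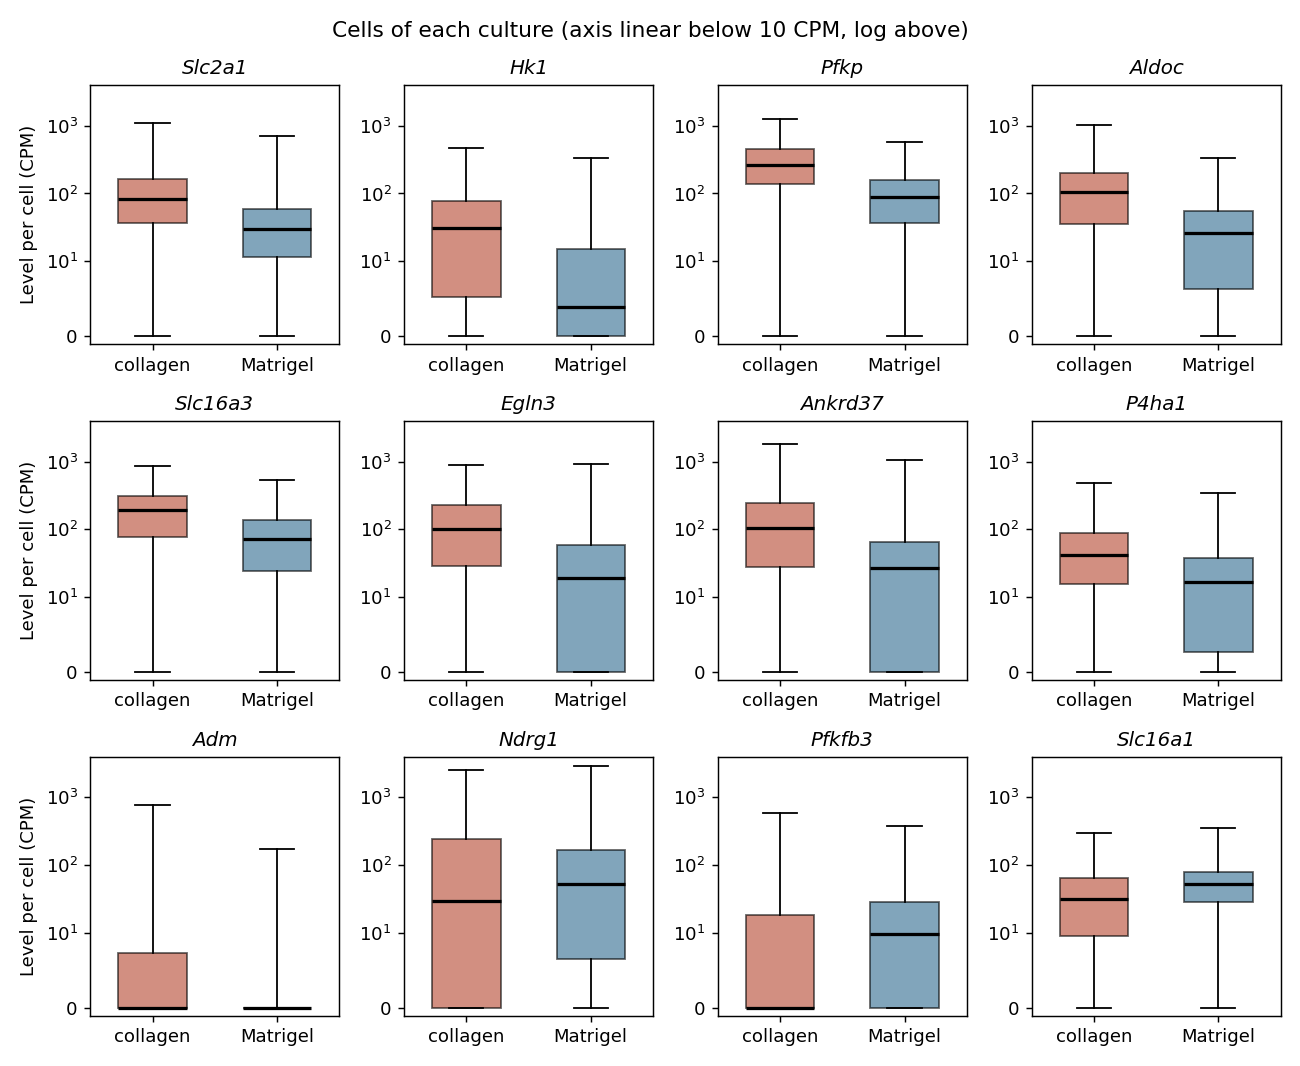
Level per cell (CPM, linear below 10 and logarithmic above) of 12 members in 336 collagen cells (left boxes) and 1599 Matrigel cells (right boxes). Boxes span the quartiles with the median as a line, and whiskers reach the lowest and highest cell; the medians are higher in collagen cells for the 8 genes of the upper 2 rows, equal at 0 for Adm, and lower for Ndrg1, Pfkfb3 and Slc16a1.

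The sensors and targets of the hypoxia response split in the same manner. Hif1a, the oxygen-regulated subunit of the factor, was low in both cultures, at 8.45 CPM in collagen cells and 10.0 CPM in Matrigel cells (log2 ratio -0.23). Egln1, the main prolyl hydroxylase that marks this subunit, was at 36.3 CPM in collagen cells and 39.7 CPM in Matrigel cells (-0.13). Egln3, the prolyl hydroxylase that the factor itself induces, rose to 148 CPM in collagen cells (144 to 151), against 40.0 CPM in Matrigel cells (39.3 to 40.7), a log2 ratio of 1.86. Its median per cell was 101 CPM in collagen cells (quartiles 29.2 and 226, highest 887) and 19.0 CPM in Matrigel cells (quartiles 0 and 57.8, highest 913). The highest cells of both cultures reached similar levels, but 78.0% of collagen cells lay above the Matrigel median. At equal depth, 87.5% of collagen cells (82.9 to 91.2%) and 60.5% of Matrigel cells (58.0 to 63.0%) held a count of Egln3, and before thinning 83.0% and 67.2% did.

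Among the secreted factors, Adm, which encodes the vasodilator adrenomedullin, rose to 25.2 CPM in collagen cells (23.7 to 26.8), against 5.25 CPM in Matrigel cells (4.98 to 5.52), a log2 ratio of 2.07. It was carried by few cells: 92 of 336 collagen cells and 302 of 1599 Matrigel cells held a count, and the highest 10% of cells held 78.3% of its level in collagen cells and 85.4% in Matrigel cells. At equal depth 29.9% of collagen cells (24.5 to 35.8%) and 14.5% of Matrigel cells (12.7 to 16.4%) had one. Vegfa, the angiogenic growth factor and a classical hypoxia target, had nearly equal levels, at 30.8 CPM in collagen cells and 31.3 CPM in Matrigel cells (-0.02), and 39.3% of collagen cells lay above its Matrigel median.

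The mitophagy receptors Bnip3 and Bnip3l, which tag mitochondria for removal, had similar ratios just short of 2-fold. Bnip3 was at 150.1 CPM in collagen cells and 79.8 CPM in Matrigel cells (0.90), and Bnip3l at 230.2 CPM in collagen cells and 119 CPM in Matrigel cells (0.95). Ndrg1, a stress- and differentiation-responsive gene, was at 175 CPM in collagen cells and 129 CPM in Matrigel cells (0.44), although its median cell was lower in collagen (29.4 CPM) than in Matrigel (52.3 CPM). Ddit4, an inhibitor of the mTOR complex, was at 163 CPM in collagen cells and 93.2 CPM in Matrigel cells (0.80). Ankrd37, an ankyrin-repeat gene known as a direct target of hypoxia-inducible factor, rose to 174 CPM in collagen cells (170.4 to 178), against 43.9 CPM in Matrigel cells (43.1 to 44.7), a log2 ratio of 1.97. Its median per cell was 104 CPM in collagen cells and 26.5 CPM in Matrigel cells. P4ha1, a catalytic subunit of the enzyme that hydroxylates proline in collagen chains, rose to 61.9 CPM in collagen cells (59.6 to 64.3), against 25.2 CPM in Matrigel cells (24.6 to 25.8), a log2 ratio of 1.26. Its median per cell was 41.8 CPM in collagen cells and 16.8 CPM in Matrigel cells.

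Hypoxia-inducible factor binds short elements with the core letters ACGTG or GCGTG, and promoters of related members that rose and did not rise are printed so that their matches can be compared. Each runs from 250 bases before to 50 after a RefSeq start on GRCm38.p6, read 5′ to 3′ on the gene's strand, with matches on either strand in capitals (CACGT and CACGC are the reverse complements). The lactate transporter pair is Slc16a3, which rose (chr11:120948817-120949116, plus strand), and Slc16a1, which did not (chr3:104638414-104638713, plus strand). The prolyl hydroxylase pair is Egln3, which rose (chr12:54203825-54204124, minus strand), and Egln1, which did not (chr8:124949205-124949504, minus strand). Ankrd37 (chr8:45999801-46000100, minus strand) is an example of the hypoxia-responsive genes that rose. Adm, which had a higher log2 ratio (2.07, against 1.97 for Ankrd37), is not printed and held 0 matches to ACGTG and 2 to GCGTG.
Slc16a3: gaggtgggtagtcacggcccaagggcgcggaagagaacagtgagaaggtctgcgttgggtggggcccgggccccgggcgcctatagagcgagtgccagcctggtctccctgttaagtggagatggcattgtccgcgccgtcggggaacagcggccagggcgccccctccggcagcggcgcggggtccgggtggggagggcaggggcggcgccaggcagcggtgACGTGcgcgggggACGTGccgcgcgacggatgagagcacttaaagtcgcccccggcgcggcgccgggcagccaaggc
Slc16a1: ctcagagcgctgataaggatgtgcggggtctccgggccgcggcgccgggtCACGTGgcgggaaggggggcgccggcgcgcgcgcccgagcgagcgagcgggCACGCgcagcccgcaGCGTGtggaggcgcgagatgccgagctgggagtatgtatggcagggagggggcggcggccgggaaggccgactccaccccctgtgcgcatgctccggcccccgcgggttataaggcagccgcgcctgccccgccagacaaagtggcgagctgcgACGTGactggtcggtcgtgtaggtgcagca
Egln3: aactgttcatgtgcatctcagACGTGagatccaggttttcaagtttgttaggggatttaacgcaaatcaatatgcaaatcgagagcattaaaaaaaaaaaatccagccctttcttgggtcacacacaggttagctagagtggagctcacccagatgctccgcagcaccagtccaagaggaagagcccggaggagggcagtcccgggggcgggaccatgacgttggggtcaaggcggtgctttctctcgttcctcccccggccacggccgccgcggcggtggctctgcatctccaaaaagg
Egln1: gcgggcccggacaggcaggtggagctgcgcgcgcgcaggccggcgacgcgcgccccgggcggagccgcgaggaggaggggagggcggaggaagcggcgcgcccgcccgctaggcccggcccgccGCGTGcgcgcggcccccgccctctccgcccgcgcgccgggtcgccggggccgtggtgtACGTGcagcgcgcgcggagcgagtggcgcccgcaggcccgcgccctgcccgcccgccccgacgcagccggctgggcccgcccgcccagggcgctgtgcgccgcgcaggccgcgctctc
Ankrd37: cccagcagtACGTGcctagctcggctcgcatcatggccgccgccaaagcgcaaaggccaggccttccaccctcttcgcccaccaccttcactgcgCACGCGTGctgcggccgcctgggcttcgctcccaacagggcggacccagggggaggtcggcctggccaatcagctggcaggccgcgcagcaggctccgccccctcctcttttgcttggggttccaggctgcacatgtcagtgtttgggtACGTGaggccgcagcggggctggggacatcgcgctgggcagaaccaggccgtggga
Both members of each pair held a match, so these letters did not separate the gene that rose from the one that did not. Slc16a3 held 2 matches to ACGTG and 0 to GCGTG, while Slc16a1 held 3 and 2, including CACGTG, which reads as ACGTG on both strands and counts on each. Egln3 held 1 match, to ACGTG, and Egln1 held 1 of each. Ankrd37 held 2 of each, a pair of them overlapping.

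RefSeq promoters were found for 34 of the 37 genes, with 50 starts. ACGTG lay in 64.3% of the 14 starts of the 10 genes that rose, in 51.5% of the 33 starts of the 21 matched genes within 2-fold, and in 19.6% of all 32851 promoters of the table. ACGTG or GCGTG lay in 85.7% of the starts of genes that rose, in 72.7% of the starts of those within 2-fold, and in 43.8% of all promoters. All 10 genes that rose and 18 of the 21 within 2-fold had at least 1 start with either. By group, ACGTG was in 80.0% of 10 starts of hypoxia-responsive genes and 45.0% of 40 starts of glycolysis genes. These are matches of letters in a window and not bound sites, and several starts can belong to 1 gene. The promoters of the whole table were not matched to those of the members for base content or level. The hypoxia-responsive genes were also listed as known targets and regulators of the response, so their share is not independent of that choice.

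Where genes encode the same activity, the balance of counts between them shows a shift that does not depend on gene length. Counts of Hk1 per count of Hk2 were 1.59 in collagen cells and 0.474 in Matrigel cells, a 3.35-fold change of balance. Egln1 per Egln3 gave 0.246 for collagen and 0.991 for Matrigel cells, a log2 change of -2.01 and the largest among the pairs in which both genes reached 5 CPM. Slc16a1 per Slc16a3 gave 0.204 for collagen and 0.666 for Matrigel cells (-1.71). Pfkl per Pfkp stood at 0.621 in collagen cells and 1.20 in Matrigel cells (-0.94), Pfkm per Pfkp at 0.0561 in collagen cells and 0.111 in Matrigel cells (-0.99), and Aldoa per Aldoc at 9.25 and 16.6 in collagen and Matrigel cells (-0.84). The other 4 pairs in which both genes reached 5 CPM shifted less, with log2 changes of 0.04 for Pfkl to Pfkm, 0.08 for Pkm to Pklr, 0.27 for Pdk1 to Pdk2 and -0.04 for Bnip3 to Bnip3l. Slc2a1 to Slc2a3 shifted by 1.68 toward Slc2a1, but rests on 87 counts of Slc2a3 in collagen cells. Ldha to Ldhb shifted by 1.07, with 12 counts of Ldhb in collagen cells. The widest shifts of all were of Pdk1 to Pdk4 (-3.46) and Pdk2 to Pdk4 (-3.72), toward Pdk4 in collagen cells, on its 57 and 38 counts in collagen and Matrigel cells.

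**Figure D3:**
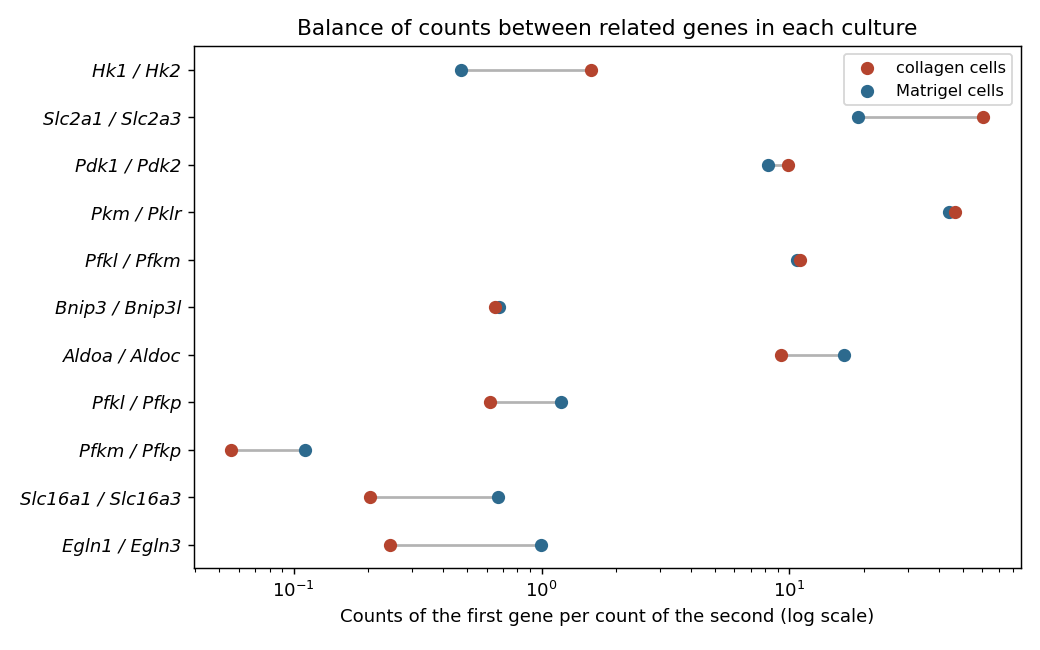
Counts of the first gene per count of the second in collagen cells (red) and Matrigel cells (blue), on a log axis, for pairs of related members whose rarer gene reached 2 CPM. The widest lines belong to Egln1 / Egln3, Hk1 / Hk2, Slc16a1 / Slc16a3 and Slc2a1 / Slc2a3, while the points of Pfkl / Pfkm, Pkm / Pklr and Bnip3 / Bnip3l lie almost on each other.

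Cells were grouped by all other genes, without the 37 members and the related pathway lists, to see where in each culture the members were highest. The collagen cells were nearly all in 1 cluster (310 of 336) that held 3 Matrigel cells and was led by Msln, Sprr1a, Ly6a and Il1rn. The Matrigel cells fell into 6 clusters of at least 20 cells, so culture and cluster cannot be told apart. Of these, cluster 1 (412 cells) was led by Esco2 and Top2a, cluster 2 (353) by Edn1, Sfrp5 and Olfm4, cluster 3 (342) by Reg1, Rbp2 and Sis, and cluster 4 (326) by Cenpa, Cdc20 and Ccnb1. Cluster 7 (76) was led by Spink4, Chgb and Cck, and cluster 6 (87) had shallow cells with a median of 19.2% mitochondrial counts. Collagen cells were clustered again, a step added after seeing the data, on 20 principal components of variable genes chosen among collagen cells. The members and the pathway lists were again left out. This split gave subcluster 1 (155 cells, led by Defa24, Chgb and Spink4), subcluster 2 (99, led by Adh6a, Adh1 and Fabp1), subcluster 3 (56, led by Reg1, F3, Plat and Areg) and subcluster 4 (26, led by Ly6d, Mup20 and Cryab). The leading genes of subcluster 1 came from few of its cells: Defa24 was counted in 5 and Chgb and Spink4 in 4 each of the 155, and in 0 of the 181 other collagen cells. Genes of the cell cycle were more widespread there, with Mki67 in 120 of the 155 cells (115 CPM, against 14.1 CPM in the other collagen cells) and Mcm5 in 90 (52.0 CPM, against 3.06 CPM). Their part in the levels of the members in subcluster 1 was not tested. In subcluster 3, Reg1 was counted in only 1 of the 56 cells, while F3, Plat and Areg were counted in 47, 51 and 43. In subcluster 4, Mup20 was counted in 1 of the 26 cells, Ly6d in 6 and Cryab in 9. Other leading genes of subcluster 4 were more widespread, with Sprr1a and Tubb2b in 20 cells each and Anxa10 in 18. Subcluster 4 was shallow, with a median of 44984 counts per cell and 10.9 CPM of Ankrd37 where the other 3 had at least 120.5 CPM.

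Within Matrigel, most glycolysis genes were highest in the cells led by Reg1, Rbp2 and Sis, genes known from absorptive enterocytes. This cluster 3 had the highest level of 14 of the 22 glycolysis genes (Gapdh at 2479 CPM, Ldha at 1974 CPM, Pfkp at 186 CPM and Slc16a3 at 136 CPM) and of 4 of the 11 hypoxia-responsive genes (Egln3 at 82.6 CPM, Adm, Ddit4 and Ankrd37). Of all 10593 genes, 10.6% were highest there. Its glycolysis sum was 12276 CPM, while the other 5 clusters lay between 8630 and 9343 CPM. The cells led by Spink4, Chgb and Cck, genes of the secretory lineages, had another profile. This cluster 7 was highest for 4 of the 22 glycolysis genes, among them Hk1 (22.2 CPM) and Hk2 (58.9 CPM). It was also highest for 5 of the 11 hypoxia-responsive genes, among them Bnip3 (169 CPM), Ndrg1 (432 CPM) and P4ha1 (47.6 CPM). The share of all genes highest in cluster 7 was not calculated, so these counts are not read as particular to the members. Its hypoxia-responsive sum was 1082 CPM, but its glycolysis sum was 8656 CPM. The clusters led by cell-cycle and stem-cell genes (1, 2 and 4) had hypoxia-responsive sums between 498 and 522 CPM.

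Within collagen, the hypoxia-responsive genes peaked in subcluster 3, with sums of 856 CPM in subcluster 1, 1484 CPM in subcluster 2, 1878 CPM in subcluster 3 and 653 CPM in subcluster 4. The glycolysis sum was 11739 CPM in subcluster 1, 16081 CPM in subcluster 2, 16374 CPM in subcluster 3 and 17317 CPM in subcluster 4. Subcluster 3 was highest for 9 of the 11 hypoxia-responsive genes, among them Adm (79.1 CPM), Egln3 (237 CPM), Ankrd37 (277 CPM), Ddit4 (247 CPM) and Vegfa (50.6 CPM), and for 6 of the 22 glycolysis genes, among them Slc2a1 (239.9 CPM), Hk1 (107 CPM) and Pfkfb3 (54.8 CPM). Of all 10593 genes, 18.9% were highest in subcluster 3. The genes on RNA quality and handling were all higher there too than in the other collagen cells. Among them were Atf3 (69.0 against 10.0 CPM), Malat1 (2388 against 709 CPM) and Hspa1a (25.3 against 7.87 CPM). The part of handling in the levels of subcluster 3 was not tested. Adm reached 8.27 CPM in subcluster 1 and 27.0 CPM in subcluster 2, and without the 56 cells of subcluster 3 its log2 ratio over Matrigel was 1.32. The log2 ratio of Pfkfb3 was -0.44 without those cells. Subcluster 4 had high late glycolysis genes (Gapdh at 4033 CPM, Pgk1 at 2392 CPM) beside 0 counts of Adm and of Ddit4, each of which allows up to 2.18 CPM. The genes on RNA quality and handling were all lower in subcluster 4 than in the other collagen cells. Among them were Malat1 (16.0 against 1018 CPM), Neat1 (5.09 against 95.6 CPM) and Fos (1.45 against 160 CPM). The part of RNA quality in the levels of subcluster 4 was not tested.

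The lowest collagen subcluster was set against the highest Matrigel cluster for each gene. Collagen subclusters 1 to 3 all stood above all 6 Matrigel clusters for 9 of the 22 glycolysis genes (Slc2a1, Hk1, Gpi1, Pfkp, Aldoa, Aldoc, Pkm, Ldha and Slc16a3) and for 6 of the 11 hypoxia-responsive genes (Egln3, Adm, Bnip3l, Ddit4, Ankrd37 and P4ha1), against 12.2% of all 10593 genes. They stood below all of them for 0 members, against 12.3% of all genes. With the shallow subcluster 4 included, the 4 collagen subclusters stood above all Matrigel clusters for 7 glycolysis genes and 2 hypoxia-responsive genes (Egln3 and Bnip3l), against 7.06% of all genes, and below them for 0 members, against 11.9%. Hk1 is an example, at 30.1 CPM in its lowest collagen subcluster and 22.2 CPM in its highest Matrigel cluster. Ndrg1 is a counter-example, at 78.9 CPM in collagen subcluster 1 and 432 CPM in Matrigel cluster 7. Against Matrigel cluster 3 alone, 3 glycolysis genes rose by 2-fold or more in collagen cells (Slc2a1, Hk1 and Aldoc). There the log2 ratios of Pfkp (0.71), Aldoa (0.66), Slc16a3 (0.73) and Egln3 (0.83) fell below 1 and that of Ndrg1 was -0.57, while those of Ankrd37 (1.34), Adm (1.71) and P4ha1 (1.29) did not.

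**Figure D4:**
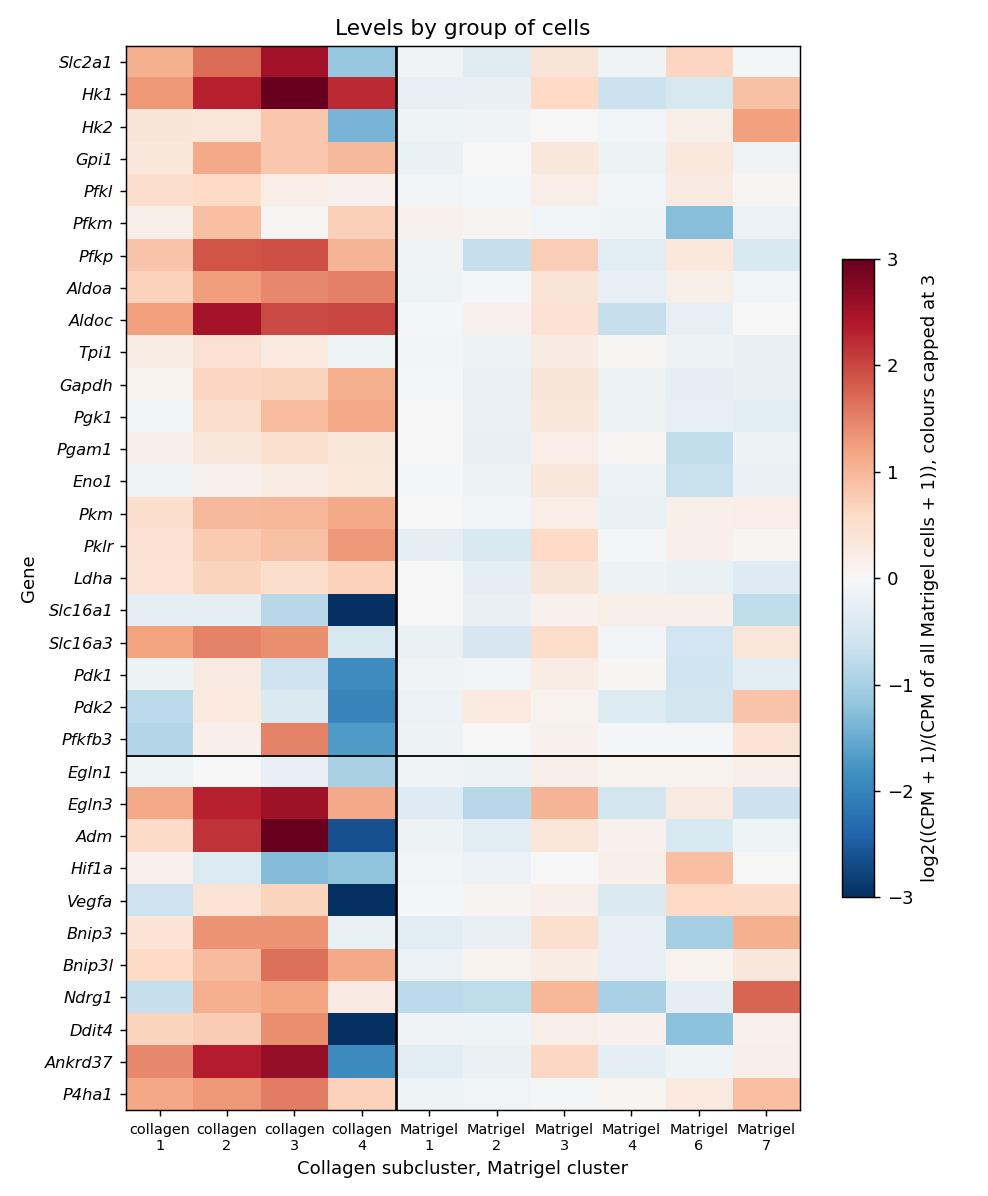
Level of each member in the 4 collagen subclusters (left) and the 6 Matrigel clusters (right), as log2 of CPM + 1 over that of all Matrigel cells, red for higher and blue for lower. Hk1, Aldoc, Egln3 and Ankrd37 are red across collagen subclusters 1 to 3, Ndrg1 is red in collagen subclusters 2 and 3 and in Matrigel clusters 3 and 7, and collagen subcluster 4 is dark blue for Adm, Ddit4, Vegfa and Slc16a1.

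Cells with more of one member tended to have more of another. Over 264 collagen cells and 1477 Matrigel cells at equal depth, Spearman's rho was taken between the 27 members that had a count in at least 50% of cells of both cultures. These are descriptions, since the cells of a culture share 1 suspension and 1 library. Within glycolysis, 153 pairs had a median rho of 0.34 in collagen cells and 0.33 in Matrigel cells, led by Gapdh with Pgk1 (0.80 in collagen cells and 0.75 in Matrigel cells). Between hypoxia-responsive genes it was 0.30 for collagen and 0.16 for Matrigel cells, with 17 and 8 of 36 pairs at 0.3 or more. Egln3 with Ankrd37 had 0.64 in collagen cells and 0.35 in Matrigel cells, and Egln3 with Bnip3l 0.49 in collagen cells and 0.23 in Matrigel cells. Pairs of a glycolysis gene and a hypoxia-responsive gene had medians of 0.26 in collagen cells and 0.18 in Matrigel cells. Pklr and Slc16a1 stood outside, with Slc2a1 to Pklr at -0.10 and Slc16a1 to Bnip3l at -0.09 in collagen cells. Over collagen cells the members also ran against the mitochondrial percent, with a median rho of -0.32 over 28 members (lowest -0.47, for Gapdh), while in Matrigel cells that median was 0.03. Their rho with the depth before thinning had medians of -0.12 in collagen cells and 0.03 in Matrigel cells. The part of both in the co-variation was not tested.

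**Figure D5:**
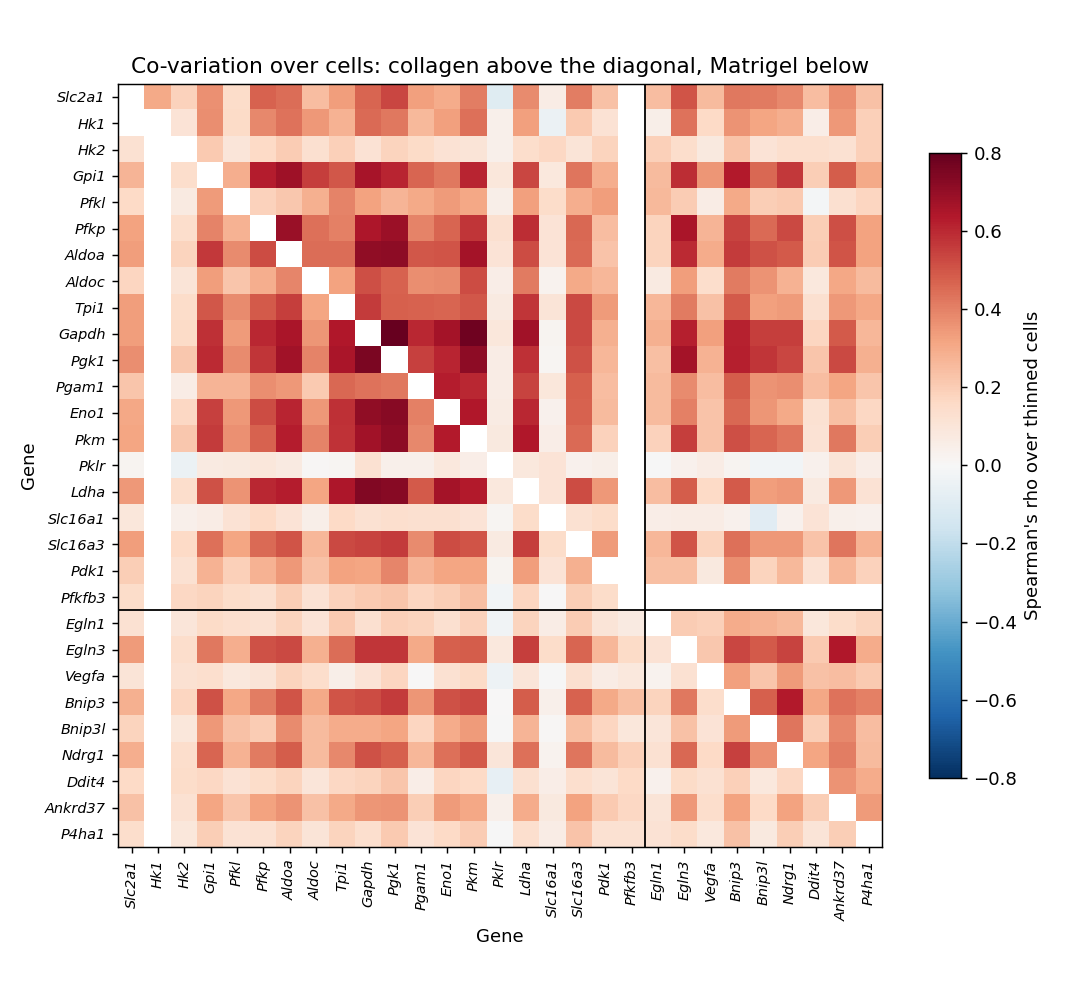
Spearman's rho between members over thinned cells, above the diagonal for 264 collagen cells and below it for 1477 Matrigel cells, with black lines between glycolysis and hypoxia-responsive genes. The block from Gpi1 to Ldha is dark on both sides, the hypoxia-responsive block is darker for collagen, and blanks mark members with a count in fewer than 50% of cells of that culture.

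The neighbouring pathways were followed with lists of related genes. The list of other hypoxia targets pointed the same way, with 10 of 22 genes that rose in collagen cells, 1 that fell and a median of 0.86. Among those that rose were Hmox1, heme oxygenase (26.1 CPM in collagen cells and 4.17 CPM in Matrigel cells), Ero1a, an oxidase of the endoplasmic reticulum (828 and 168 CPM in collagen and Matrigel cells), and Selenbp1 (209 and 57.1 CPM). Car12, a carbonic anhydrase, was lower, at 5.14 CPM in collagen cells and 33.9 CPM in Matrigel cells (-2.51), while its relative Car9 was at 217 and 106 CPM in collagen and Matrigel cells (1.03). The 9 genes of the factor's own machinery held 0 that rose and 0 that fell, with a median of 0.17: Epas1, the other oxygen-regulated subunit, was at 25.7 CPM in collagen cells and 15.8 CPM in Matrigel cells (0.67), and Vhl, the ubiquitin ligase adaptor, at 14.8 and 9.74 CPM in collagen and Matrigel cells (0.56).

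Among the isoforms of glycolysis outside the 37 genes, 2 of 17 rose in collagen cells and 1 fell, with a median of 0.12. These shares were near those of all 10593 genes, of which 8.21% rose and 8.91% fell. Hkdc1, a hexokinase-like gene, was at 31.4 CPM in collagen cells and 8.51 CPM in Matrigel cells (1.77), and Gpd2, the mitochondrial glycerol 3-phosphate dehydrogenase, at 172 and 71.6 CPM in collagen and Matrigel cells (1.26). The genes that bring pyruvate into the mitochondrion leaned the other way: 9 of 10 had a log2 ratio below 0, 0 fell by 2-fold and the median was -0.28. Mpc2, a subunit of the pyruvate carrier, was at 107 CPM in collagen cells and 190.0 CPM in Matrigel cells (-0.82), and Pcx, pyruvate carboxylase, was the 1 that rose, at 10.3 and 3.12 CPM in collagen and Matrigel cells (1.46). The 8 pentose phosphate genes held 0 that rose and 0 that fell (median 0.41). Of 9 genes of gluconeogenesis and glycogen, 0 rose and 2 fell: Fbp1, which runs the phosphofructokinase step backwards, at 1.58 CPM in collagen cells and 23.7 CPM in Matrigel cells (-3.26), and Pck2, the mitochondrial phosphoenolpyruvate carboxykinase, at 44.1 and 92.2 CPM in collagen and Matrigel cells (-1.05). Fbp2, the relative of Fbp1 for the same step, was higher than Fbp1 in both cultures and nearly equal between them, at 232 CPM in collagen cells and 220 CPM in Matrigel cells (0.07).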

How the data were processed

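Expected counts, unscaled, of 37172 genes in 2090 cells of 1 pooled library were deposited by the authors, and 75.6% of the values above 0 were whole. Hashtag counts per barcode, all whole, were deposited beside them. The submitters' processing notes name STARsolo 2.7.10a, cutadapt 4.1, R 4.2.1 and the GRCm39 build; their roles, the annotation and any collapsing of copies are not given in the sources used here. Cell names gave 336 collagen, 1615 Matrigel and 139 doublet-named cells, the last left out; limits of 500 detected genes and 30% mitochondrial counts removed 16 Matrigel cells. The design written earlier assumed molecules counted by identifiers; the same calculations were applied to these expected counts.

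The kept cells held 42540314 collagen and 285201649 Matrigel counts. Sums were scaled to CPM with a pseudocount of 1 CPM; members entered counts and medians at 5 CPM in either culture. Intervals (95%, exact Poisson of sums rounded to whole numbers, exact Clopper-Pearson of shares; scipy 1.17.1) cover counting error only and are too narrow if copies were counted. For shares and correlations cells were thinned to 77972 counts, leaving out 72 collagen and 122 Matrigel cells. Cells were clustered with leidenalg 0.10.2 on 30 principal components of 2000 variable genes (resolution 0.5). Subclusters of collagen cells were made after seeing the data, on fewer components and on variable genes chosen among collagen cells. The calculation was tested on simulated counts. All 37 members were named. Of each neighbouring list, the largest ratios (up to 4 per direction) were named, with a few others chosen after their values were seen (Car9, Epas1, Vhl, Mpc2, Pdhx and Fbp2). Members and lists were chosen with earlier results of these data known. Pgk2, G6pc1 and Krt6a were not analysed here, and some genes that the naming rule picks are not reported here. Promoters came from RefSeq (GRCm38.p6), used for sequence alone since the files' build differs.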

Additional observations from a re-analysis of the deposited data

How the results depend on the processing

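The limits are those of 1 suspension per culture, a collagen culture of 336 cells that nearly all share 1 cluster, and shallower collagen cells. Alternatives planned were a filter of 20 CPM or none, pseudocounts of 0.1 and 5 CPM, TMM factors, median-of-ratios factors, totals without mitochondrial genes, means over cells, thinned cells, no filter on cells, hashtag shares of 60% and 95%, whole-number values only, and leaving out each cluster; leaving out collagen subclusters, collagen cells of cluster 5 alone and Matrigel cells of cluster 3 alone were added after seeing the data. The plan to leave out genes without low values touched no member and was not run. No paired analysis was possible because each culture has 1 sample.

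The 10 members that rose stayed at least 2-fold higher except where named. Without cluster 5, which leaves 26 collagen cells, 9 of the 10 fell below 2-fold: 1 glycolysis gene was at least 2-fold higher (Hk2) and 3 lower (Slc16a1, Pdk2 and Pfkfb3), 2 hypoxia-responsive genes were higher (P4ha1 and Hif1a), and the medians were 0.033 and 0.68. Against Matrigel cluster 3 alone, 3 glycolysis genes were higher and Egln3 fell below 2-fold, with medians of 0.21 and 0.61. Without collagen subcluster 1, 7 hypoxia-responsive genes were higher, with medians of 0.70 for glycolysis and 1.24. Aldoa fell below 2-fold with whole-number values only (0.96), and without cluster 4 (0.98), collagen subcluster 2 (0.94) or collagen subcluster 3 (0.95). Bnip3 passed 2-fold in thinned cells (1.01), and Bnip3 (1.08) and Bnip3l (1.02) without cluster 3. Compared with the glycolysis median of 0.46, every member with a count gave 0.43, 20 CPM 0.51, pseudocounts of 0.1 and 5 CPM 0.48 and 0.45, TMM 0.43, median of ratios 0.48, no mitochondrial genes 0.45, means over cells 0.48, thinning 0.52, a hashtag share of 95% 0.48 and whole-number values 0.51. Leaving out clusters 1 to 4 gave 0.49, 0.45, 0.56 and 0.44, leaving out collagen subclusters 2 to 4 gave 0.45, 0.51 and 0.49, and cluster 5 alone gave 0.49. Compared with the hypoxia-responsive median of 0.90, 20 CPM gave 0.93, pseudocounts 0.91 and 0.87, TMM 0.87, median of ratios 0.92, no mitochondrial genes 0.89, means over cells 0.87, thinning 0.94, hashtag shares of 60% and 95% 0.89 and 0.95, and whole-number values 0.81. Leaving out clusters 1 to 4, 6 and 7 gave 0.81, 0.85, 1.02, 0.85, 0.90 and 0.94, leaving out collagen subclusters 2 to 4 gave 0.81, 0.76 and 0.93, and cluster 5 alone gave 0.91. The whole-number setting held 29 of the 33 members, so its medians are not of the same set of genes as 0.46 and 0.90. Among the scalings, TMM factors moved all ratios most, by 0.03 on the log2 scale. The causes were not tested.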

Other observations

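The 137 kept cells that the deposited table names as doublets were outside every comparison. Of the 37 members, 26 had a level in them between those of the collagen and the Matrigel cells, among them Hk1 (20.8 CPM, with 53.3 CPM in collagen cells and 11.7 CPM in Matrigel cells), Egln3 (63.5 CPM, with 148 and 40.0 CPM in collagen and Matrigel cells) and Ankrd37 (66.1 CPM, with 174 and 43.9 CPM). Ddit4 stood at 90.7 CPM in them, below both collagen cells (163 CPM) and Matrigel cells (93.2 CPM). The 37 members include some below 5 CPM, such as Pdk4 at 0.656 CPM in the doublet-named cells. The share of all genes that lay between the cultures was not calculated, so the count of 26 is not read as particular to the members.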
